A study of Rattus norvegicus with 138 samples.

Results

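The caudal ventrolateral medulla (CVLM) and the rostral ventrolateral medulla (RVLM) of the spontaneously hypertensive rat (SHR) were compared within the same animals. The members were all libraries of SHRs from these regions, 28 CVLM and 28 RVLM libraries of 28 rats, and thus 56 of the 138 libraries in the series. The study followed gene expression in the brainstem of female rats as hypertension developed, by RNA sequencing of the nucleus of the solitary tract (NTS), the CVLM and the RVLM. It used the SHR, an inbred strain whose blood pressure climbs with age, and the normotensive Wistar-Kyoto (WKY) rat as the control strain. The SHRs were 8, 10, 12, 16 and 24 wk old, with 5, 5, 6, 6 and 6 rats at these ages, and 18 WKY rats (5, 4, 3, 3 and 3) were compared with them below. No treatment is named for any rat, every rat gave 1 library per region, and the punches of the left and right sides of a rat were combined. A library is therefore tissue with all of its neurons, glia and vessels, cut by atlas position, and not a sorted cell type.

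The CVLM and RVLM are neighboring stretches of the ventrolateral medulla and are links of the baroreflex. Excitatory neurons of the RVLM, many of them adrenergic C1 cells, drive the sympathetic preganglionic neurons of the spinal cord, and inhibitory neurons of the CVLM hold them back when the NTS reports a rise in pressure. The ventrolateral medulla also holds noradrenergic A1 cells at its caudal end, the respiratory column, and the cholinergic motor neurons of the nucleus ambiguus, while the facial motor nucleus lies close to its rostral end.

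The libraries held between 5904570 and 17088079 counts in the CVLM (median 10295005) and between 6737117 and 16516713 counts in the RVLM (median 10493117.5). Values below are CPM, the counts of a gene scaled to a common library size and composition, and a log2 fold change is CVLM minus RVLM, so that a positive value means more in the CVLM. The threshold for a call was an adjusted p of 0.01 in edgeR's quasi-likelihood test with the rat as a block, and a gene was called at 2-fold when the log2 fold change was also at least 1 in size. The CVLM library of SHR 1 at 8 wk stood farthest from its group, with a median correlation of 0.9424 to the other CVLM libraries against 0.9619 to 0.981 for the rest. Without this rat, 341 genes passed at 2-fold on the CVLM side and 294 on the RVLM side, against 339 and 314 with it.

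Of 13636 genes tested, 339 (2.49%) were higher in the CVLM and 314 (2.3%) were higher in the RVLM at 2-fold. With the adjusted p alone, 2268 genes (16.6%) were higher in the CVLM and 2497 (18.3%) in the RVLM, and the median log2 fold change over all genes was -0.00085. The counts for each gene list below stand against these shares, and a list near them shows nothing particular. A gene was tested if its values were high enough in either region, so that some list members could enter through their higher region alone. In 76 genes (0.557%) the lowest CVLM library exceeded the highest RVLM library, and in 107 genes (0.785%) the reverse held. Among the 12 largest differences on the CVLM side were the positional genes Hoxb5 and Hoxc5, the oxidase gene Duox2, the glutamate transporter gene Slc17a7 and the peptide gene Gal. Among the 12 on the RVLM side were Adam7, Trim58 and the motor neuron genes Calca, Slc18a3, Isl1 and Chat. The pairwise plot of levels shows this for 12 genes.

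**Figure D1:**
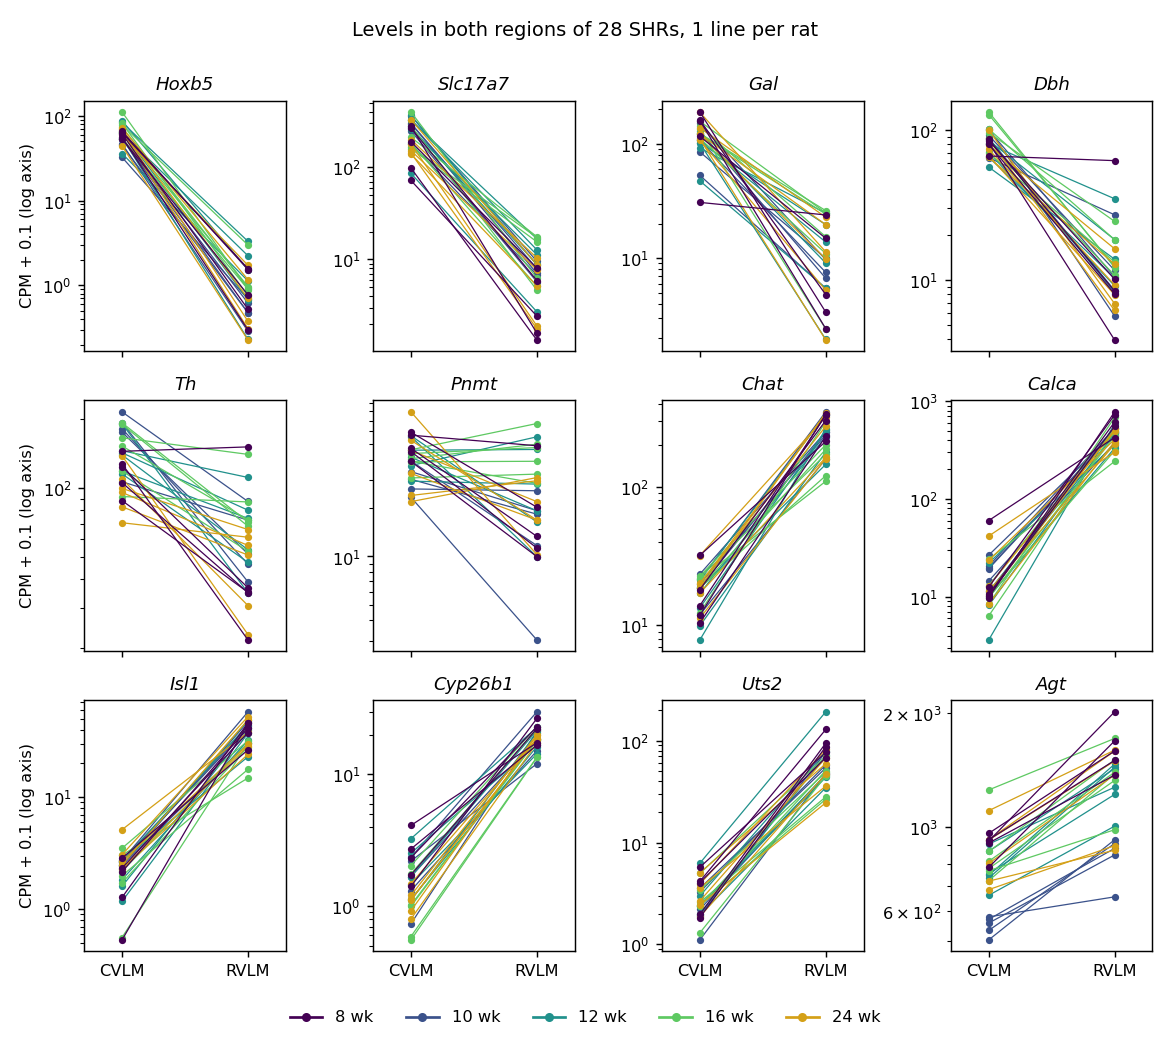
Levels of 12 genes in the CVLM and the RVLM of 28 SHRs, in CPM plus 0.1 on a log axis, with 1 line per rat colored by age. Every line falls from the CVLM to the RVLM for Hoxb5, Slc17a7, Gal and Dbh and climbs for Chat, Calca, Isl1, Cyp26b1 and Uts2, whereas the lines for Pnmt cross.

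Hox genes encode transcription factors that give cells of the hindbrain and spinal cord their position along the head-to-tail axis, and genes of higher number are used further toward the tail. Of 27 Hox genes on the list, 14 passed the filter on low values, 12 of these were higher in the CVLM beside 16.6% of all genes, and none was higher in the RVLM beside 18.3%. Their median log2 fold change was 2.05. The filter kept a gene that was high enough in either region, so that some members could enter through the CVLM alone. That limits the comparison with 16.6%. Hoxb5 was at 32.3 to 111 CPM in the CVLM (median 62.9) and at 0.126 to 3.20 CPM in the RVLM (median 0.66), a log2 fold change of 6.21 ± 0.18 (SE, n = 28 rats, adjusted p = 3.8e-22). The ranges did not overlap, and the difference was among the largest of the tested genes named here. Hoxc5 was at 12.9 to 31.4 CPM in the CVLM (median 23.0) and at 0.0921 to 2.81 CPM in the RVLM (median 0.76), with a log2 fold change of 4.70 ± 0.20. Hoxc4, at a median of 16.5 CPM against 2.06 CPM, differed by 2.92 ± 0.16, again without overlap.

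The genes of lower number differed less. Hoxb2 was at a median of 8.62 CPM in the CVLM and 4.04 CPM in the RVLM (log2 fold change 1.09 ± 0.10), and its ranges overlapped. Hoxd3 differed by 0.96 ± 0.16, and Hoxb3 was at 0.56 ± 0.25 with an adjusted p of 0.068 and was not called. Hoxb6, Hoxc6 and Hoxa5 had a median of 0 CPM in the RVLM, so that their log2 fold changes of 6.00, 5.19 and 4.30 depend on the prior count of the fit. The summed level of the 26 Hox genes in the tables was 87.8 to 209.9 CPM in the CVLM, 5.82 to 31.8 CPM in the RVLM and 144.6 to 296.3 CPM in the NTS, and it was higher in the CVLM than in the RVLM in 28 of 28 rats. The plot by paralog group shows the order of these differences.

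**Figure D2:**
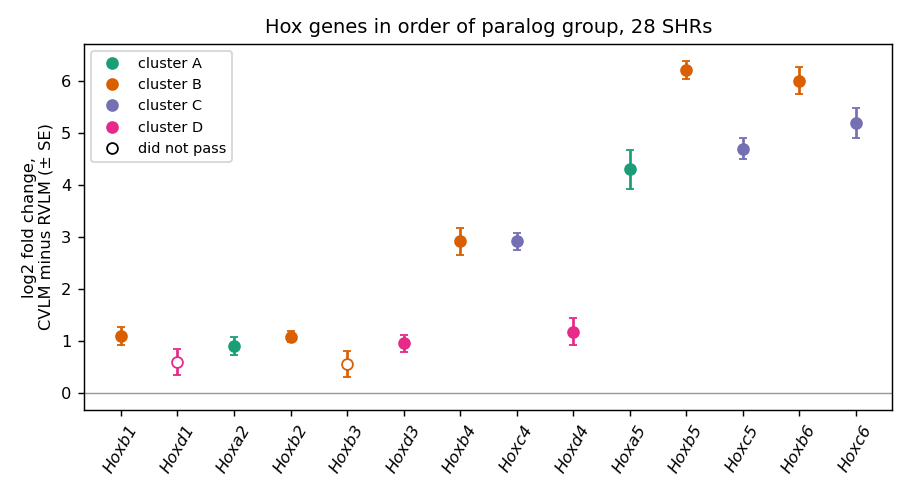
Log2 fold change (CVLM minus RVLM, y axis, with bars for the SE) of the 14 tested Hox genes in 28 SHRs, ordered along the x axis by paralog group. Hoxb5, Hoxc5, Hoxa5, Hoxb6 and Hoxc6 lie above 4, whereas the genes of groups 1 to 3 lie at or below 1.10.

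Other transcription factors that divide the embryonic hindbrain into neuron classes split between the regions. Of 66 listed, 37 passed the filter, 17 were higher in the CVLM and 9 in the RVLM (16.6% and 18.3% of all genes), and their median log2 fold change was 0.20. Barhl1, which marks neurons of the rhombic lip that project to the cerebellum, was at a median of 1.24 CPM in the CVLM and 0.0626 CPM in the RVLM (log2 fold change 3.93 ± 0.29). Zic4 was at 3.01 to 10.0 CPM in the CVLM (median 5.27) and at 0.45 to 2.27 CPM in the RVLM (median 1.13), a difference of 2.31 ± 0.13 with no overlap. Lhx9, Irx2, Irx1, Foxp2 and Pax6 were also called at 2-fold on the CVLM side, at log2 fold changes of 2.09, 2.0, 1.68, 1.4 and 1.3.

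On the RVLM side, 3 of these factors were called at 2-fold, and on the CVLM side 11, beside 2.3% and 2.49% of all genes. Lhx4, a LIM factor of early motor neurons, was at 0 to 1.23 CPM in the CVLM (median 0.221) and at 0.747 to 3.61 CPM in the RVLM (median 2.15), a log2 fold change of -2.79 ± 0.25. Nr2f2, an orphan nuclear receptor, was at 1.03 to 4.45 CPM in the CVLM and at 4.77 to 8.91 CPM in the RVLM, and thus did not overlap (-1.68 ± 0.11). Atoh1, the rhombic lip factor, was at medians of 0.239 and 0.983 CPM (-1.80 ± 0.27). Gata2 and Gata3, which specify inhibitory and serotonergic neurons, were higher in the RVLM by less than 2-fold, at -0.79 and -0.87.

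Genes of excitatory transmission were higher in the CVLM. Of 6 glutamate transmission genes, 5 passed the filter and all 5 were higher in the CVLM beside 16.6% of all genes, with a median log2 fold change of 1.15. Slc17a7, the vesicular glutamate transporter VGLUT1, was at 71.9 to 399 CPM in the CVLM (median 230.4) and at 1.23 to 17.5 CPM in the RVLM (median 7.27), a log2 fold change of 5.02 ± 0.19 (adjusted p = 3.6e-19). No RVLM library reached the lowest CVLM library. Slc17a6, the transporter VGLUT2 that most brainstem glutamate neurons use, was at 205 to 366 CPM in the CVLM (median 281) and at 79.9 to 234 CPM in the RVLM (median 122), a smaller difference of 1.14 ± 0.08 with overlap. In the NTS, Slc17a7 had a median of 5.69 CPM and Slc17a6 a median of 317 CPM.

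Genes listed as markers of precerebellar nuclei, which include the inferior olive and the lateral reticular nucleus, followed the same side. Of 10 listed, 8 passed the filter, 6 were higher in the CVLM at 2-fold beside 2.49% of all genes, and Cbln2 was higher in the RVLM (-1.01 ± 0.15). Besides Barhl1, Crh and Foxp2, these were Calb1, a calcium buffer (medians of 28.9 and 7.08 CPM, 2.10 ± 0.18), and the synaptic organizers Cbln1 (7.86 and 2.28 CPM, 1.88 ± 0.14) and Cbln4 (18.0 and 6.41 CPM, 1.55 ± 0.12). Htr5b, on the list for the inferior olive, was not called at 0.76. The summed level of the list, untested members included, was 53.6 to 173.6 CPM in the CVLM and 29.2 to 91.3 CPM in the RVLM, and the part of these nuclei in the Slc17a7 difference was not tested. In bulk tissue, fewer cells of a type and less RNA per cell cannot be told apart, here and in every comparison that follows.

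Genes of inhibitory transmission were called in both directions. Of 9 tested, 3 were higher in the CVLM and 2 in the RVLM, beside 16.6% and 18.3% of all genes, none was called at 2-fold, and the median was 0.30. Gad1, which makes GABA, was at 120 to 330 CPM in the CVLM (median 167) and at 51.2 to 202 CPM in the RVLM (median 91.1), a log2 fold change of 0.85 ± 0.12 (adjusted p = 8.5e-07) in 27 of 28 rats. Gad2 differed by 0.70 and Slc32a1, the vesicular carrier of GABA and glycine, by 0.44 ± 0.15 (adjusted p = 0.014), which missed the threshold. Slc6a5, the glycine transporter of glycinergic neurons, was at medians of 163 and 128 CPM (0.30 ± 0.13, adjusted p = 0.058). The GABA transporter Slc6a11 was higher in the RVLM, at -0.70.

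Catecholamine genes were higher in the CVLM, with a wide gap for the noradrenaline enzyme Dbh and a narrow one for the adrenaline enzyme Pnmt. Of 14 listed genes, 11 passed the filter, 9 were higher in the CVLM beside 16.6% of all genes and 1 was higher in the RVLM, with a median of 0.93. Dbh, which turns dopamine into noradrenaline, was at 56.3 to 131 CPM in the CVLM (median 83.2) and at 3.86 to 62.1 CPM in the RVLM (median 10.5), a log2 fold change of 2.81 ± 0.18 (adjusted p = 1.3e-13) in 28 of 28 rats. The ranges overlapped through 1 RVLM library, that of SHR 2 at 8 wk with 62.1 CPM, and the next highest was at 34.5 CPM. This rat also had the highest Th in the RVLM (151 CPM) and, in the CVLM, the lowest Gal (30.7 CPM) and the highest Chat (31.9 CPM), and without it 343 and 313 genes were called at 2-fold. Th, the rate-limiting enzyme, was at 70.5 to 215 CPM in the CVLM (median 133) and at 21.6 to 151 CPM in the RVLM (median 54.9), a difference of 1.22 ± 0.14 in 27 of 28 rats.

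Pnmt makes adrenaline and marks C1 cells. It was at 21.8 to 79.3 CPM in the CVLM (median 39.8) and at 2.92 to 67.1 CPM in the RVLM (median 21.0), a log2 fold change of 0.81 ± 0.20 (adjusted p = 0.0016). It was higher in the CVLM in 19 of 28 rats, the ranges overlapped over most of their length, and at 16 wk the difference was -0.09. The call was lost in the 21 rats whose libraries carry the number 1 (0.71, adjusted p = 0.028) and in the 7 rats with the number 2 (1.13, adjusted p = 0.027), and the meaning of these numbers is not given. All 10-wk SHRs carry the number 2. In the NTS Pnmt had a median of 2.46 CPM.

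Other genes of monoamine handling were called on the CVLM side too. Slc18a2, the vesicular monoamine transporter, was at 45.0 to 103 CPM in the CVLM (median 58.6) and at 12.1 to 57.7 CPM in the RVLM (median 19.4), a log2 fold change of 1.6 ± 0.12. Slc6a2, which takes up noradrenaline, differed by 1.61 ± 0.22 in 25 of 28 rats, and Ddc, which makes dopamine and serotonin, by 0.81 ± 0.06 in 28 of 28. Gch1, which makes the cofactor of Th, and Cyb561, of catecholamine vesicles, differed by 0.85 and 0.93. Gata3 was the member that was higher in the RVLM, and Maoa, which breaks down monoamines, was not called (0.10).

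The promoters of Th, Slc18a2 and Dbh, which were higher in the CVLM, are shown with those of Calca and Ucn, described below, which lay on the other side. Each promoter shown holds an element that was searched for, so that they are no sample of the genes of either side. Each is the 250 bases before the gene's start in RefSeq's GRCr8 assembly, 5′ to 3′ on the gene's strand. Capitals mark TGACGTCA, the palindromic cAMP response element, or TGCGTCA, a variant of it, which was searched on both strands and reads TGACGCA when it lies on the reverse strand. The regions are chr1:207508219-207508468 on the minus strand for Th, chr1:268399771-268400020 on the plus strand for Slc18a2, chr3:30886078-30886327 on the plus strand for Dbh, chr1:178317530-178317779 on the minus strand for Calca and chr6:30957836-30958085 on the plus strand for Ucn.
Th: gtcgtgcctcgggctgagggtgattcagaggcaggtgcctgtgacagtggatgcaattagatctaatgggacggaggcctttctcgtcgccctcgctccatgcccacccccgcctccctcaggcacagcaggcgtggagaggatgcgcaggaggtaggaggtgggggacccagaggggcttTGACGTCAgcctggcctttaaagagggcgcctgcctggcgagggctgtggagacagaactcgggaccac
Slc18a2: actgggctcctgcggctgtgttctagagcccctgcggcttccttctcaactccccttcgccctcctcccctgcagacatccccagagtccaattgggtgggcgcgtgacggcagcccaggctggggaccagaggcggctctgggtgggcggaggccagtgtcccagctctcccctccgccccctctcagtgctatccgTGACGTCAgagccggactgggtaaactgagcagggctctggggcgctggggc
Dbh: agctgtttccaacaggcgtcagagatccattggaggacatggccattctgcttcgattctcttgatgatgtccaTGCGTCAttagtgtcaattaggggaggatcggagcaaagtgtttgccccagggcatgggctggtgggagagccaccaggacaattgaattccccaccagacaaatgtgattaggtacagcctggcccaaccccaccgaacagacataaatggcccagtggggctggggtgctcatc
Calca: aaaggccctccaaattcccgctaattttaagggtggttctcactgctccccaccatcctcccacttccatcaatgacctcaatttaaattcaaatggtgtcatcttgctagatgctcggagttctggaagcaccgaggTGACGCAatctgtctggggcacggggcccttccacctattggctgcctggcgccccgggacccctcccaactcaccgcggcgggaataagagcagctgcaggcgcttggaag
Ucn: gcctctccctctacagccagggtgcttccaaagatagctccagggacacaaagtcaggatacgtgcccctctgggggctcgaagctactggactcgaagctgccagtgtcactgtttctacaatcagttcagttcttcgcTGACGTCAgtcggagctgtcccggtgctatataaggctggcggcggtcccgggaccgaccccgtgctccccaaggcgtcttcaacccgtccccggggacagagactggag
The 8-base element was in 466 of 27457 promoters of this length (1.7%) and the 7-base variant in 506 (1.84%). Of 8 tested genes of the catecholamine list with a promoter, Th and Slc18a2 held the first and Dbh and Gch1 the second. Of 10 tested genes of the motor list, Isl2 held the first and Calca the second, and of 24 tested peptide precursors 4 held the first and 2 the second. Calca is counted in both of these lists. Because every promoter shown holds a match, matches on both sides are no result about the regions. A match describes the sequence and not the binding of a factor.

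Serotonergic genes were detected at low levels. Of 9 listed, 7 passed the filter, 5 were higher in the CVLM and 1 in the RVLM (16.6% and 18.3% of all genes), none at 2-fold. Tph2, which makes serotonin in neurons, was at 2.76 to 16.3 CPM in the CVLM (median 5.45) and at 1.14 to 11.3 CPM in the RVLM (median 2.89), a log2 fold change of 0.99 ± 0.16 (adjusted p = 5.6e-06) in 25 of 28 rats. Slc6a4, the serotonin transporter, had medians of 0.249 and 0.121 CPM and was not called (adjusted p = 0.11).

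Cholinergic and motor neuron genes were higher in the RVLM. Of 17 listed, 13 passed the filter, 12 were higher in the RVLM beside 18.3% of all genes, 10 of them at 2-fold, none was higher in the CVLM, and the median log2 fold change was -3.27. Chat, which makes acetylcholine, was at 7.73 to 31.9 CPM in the CVLM (median 18.5) and at 109.8 to 349 CPM in the RVLM (median 243), a log2 fold change of -3.74 ± 0.13 (adjusted p = 7.1e-20) with no overlap. Slc18a3, the vesicular acetylcholine transporter, was at 4.94 to 57.9 CPM in the CVLM (median 21.4) and at 213 to 685 CPM in the RVLM (median 462), a difference of -4.31 ± 0.18. Slc18a3 lies inside the Chat locus, so that the split of counts between these genes is uncertain. Slc5a7, the choline transporter, differed by -3.27, with medians of 62.3 and 602 CPM.

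The difference covered genes of somatic and branchial motor neurons beyond acetylcholine. Isl1, the LIM factor that fixes motor neuron identity, was at 0.433 to 5.03 CPM in the CVLM (median 2.36) and at 14.7 to 57.7 CPM in the RVLM (median 37.4), with a log2 fold change of -3.99 ± 0.15. Calca, the precursor of calcitonin gene-related peptide that motor neurons release at muscle, was at 3.51 to 60 CPM in the CVLM (median 11.3) and at 242 to 777 CPM in the RVLM (median 478), a difference of -5.06 ± 0.22. Calcb, its close paralog, differed by -3.66 ± 0.17, and because the pair are near identical in part their counts may be shared. Prph, a neurofilament protein of motor axons, was at medians of 44.3 and 286 CPM (-2.70 ± 0.15), Chodl at 45.5 and 439 CPM (-3.37 ± 0.15), and Ret, a receptor for neurotrophic factors, at 44.3 and 149.96 CPM (-1.75 ± 0.12). Uts2b was the tested member that was not called.

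The summed level of the motor list was 169 to 438.2 CPM in the CVLM, 1364 to 4681 CPM in the RVLM and 263.8 to 1069 CPM in the NTS, so that the lowest RVLM library held more than the highest NTS library. Some structural genes of neurons were also higher in the RVLM. Nefl, the light neurofilament chain, was at 2658 to 5618 CPM in the CVLM (median 4407) and at 5747 to 19558 CPM in the RVLM (median 11654), with a log2 fold change of -1.43 and no overlap. Nefm, Nefh, Tubb3 and Stmn2 differed by -1.79, -1.44, -1.38 and -1.01. Of 15 genes used as markers of neurons in general, 6 were higher in the CVLM and 6 in the RVLM (16.6% and 18.3% of all genes), with a median of 0.07. On the CVLM side, the calcium buffers Pvalb (medians of 85.6 and 15.3 CPM, 2.36 ± 0.11) and Calb2 (247 and 59.8 CPM, 1.93 ± 0.12) and the vesicle calcium sensor Syt1 (374 and 139 CPM, 1.38 ± 0.11) were called at 2-fold. The strip plot of the lists sets these groups side by side.

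**Figure D3:**
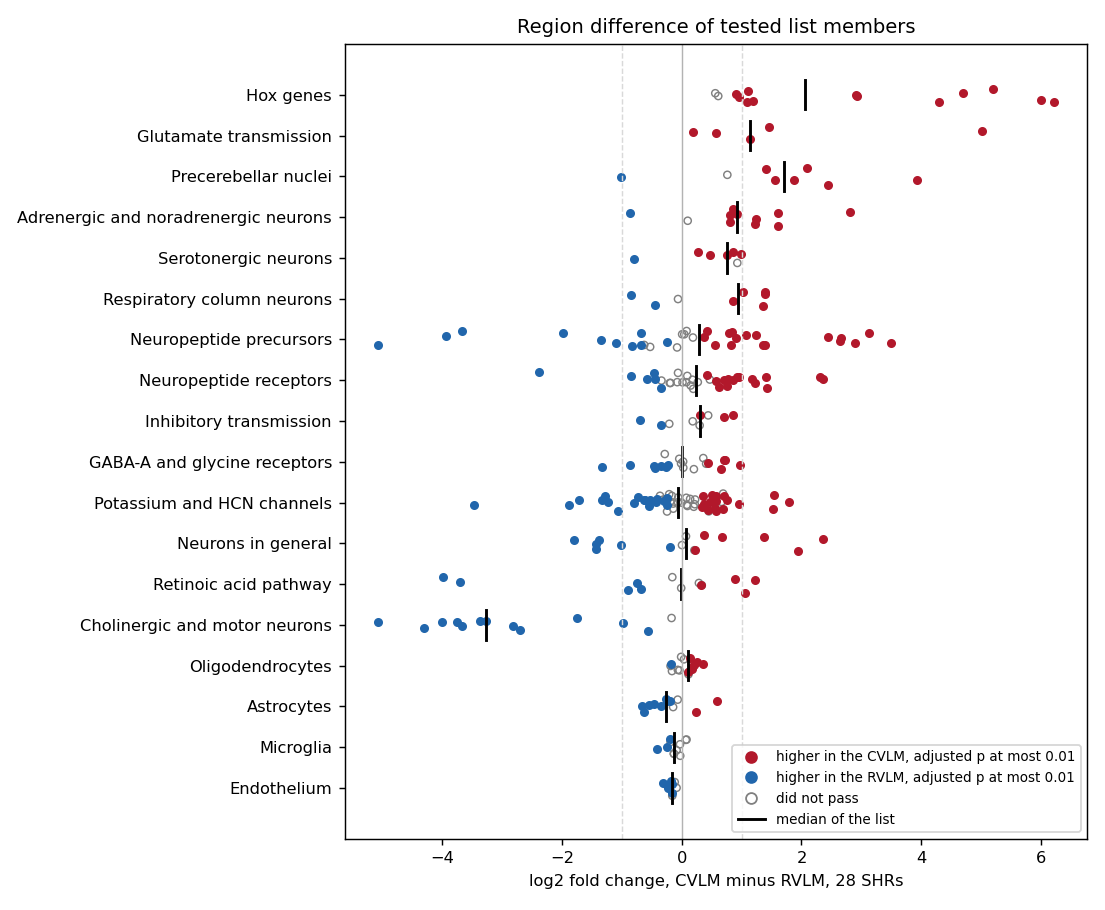
Log2 fold change (CVLM minus RVLM, x axis) in 28 SHRs for every tested member of the gene lists named on the y axis, with 1 point per gene. Most Hox, glutamate transmission, precerebellar, catecholamine, serotonergic and respiratory column genes lie to the right of 0. Most cholinergic and motor neuron, astrocyte and endothelial genes lie to the left of 0, and other lists spread to both sides.

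Neuropeptide precursors differed in both directions. Of 40 listed, 34 passed the filter, 17 were higher in the CVLM and 10 in the RVLM (16.6% and 18.3% of all genes), of which 10 and 6 at 2-fold (2.49% and 2.3% of all genes), and the median was 0.28. Gal, the precursor of galanin, was at 30.7 to 190 CPM in the CVLM (median 121) and at 1.82 to 25.9 CPM in the RVLM (median 9.81), a log2 fold change of 3.5 ± 0.26 (adjusted p = 2.2e-12) with no overlap. Nppc, the precursor of C-type natriuretic peptide, was at 17.1 to 30.5 CPM and at 1.39 to 8.24 CPM (2.66 ± 0.11), and Tac3, that of neurokinin B, at 3.90 to 15.5 CPM and at 0.295 to 3.57 CPM (2.64 ± 0.20), again without overlap. Npy, a peptide of A1 and C1 cells, had a median of 2.82 CPM in the CVLM and 0 CPM in the RVLM and was higher in the CVLM in 25 of 28 rats.

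Penk, the enkephalin precursor, was at 449 to 940 CPM in the CVLM (median 740.5) and at 68.7 to 582 CPM in the RVLM (median 264), with a log2 fold change of 1.35 ± 0.13 in 28 of 28 rats. Sst, the somatostatin precursor, was at medians of 114 and 32.4 CPM (1.39 ± 0.20), and its RVLM libraries spread from 5.56 to 149 CPM. Trh and Crh, the precursors of thyrotropin- and corticotropin-releasing hormone, differed by 2.90 ± 0.29 and 2.45 ± 0.25. Adcyap1, which makes PACAP, differed by 1.24 ± 0.12 and Pnoc, which makes nociceptin, by 1.07 ± 0.14. Of the 9 respiratory column genes, 8 passed the filter, 5 were higher in the CVLM and 2, Tacr1 and Crhr2, in the RVLM (16.6% and 18.3% of all genes).

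On the RVLM side, Calca and Calcb were followed by Ucn, which makes the stress peptide urocortin. Ucn was at 0 to 0.821 CPM in the CVLM (median 0.11) and at 0.912 to 6.25 CPM in the RVLM (median 2.46), a log2 fold change of -3.94 ± 0.26 with no overlap. Uts2, which makes the vasoactive peptide urotensin and was found among the largest differences and not on this list, was at 1.01 to 6.16 CPM in the CVLM and at 24.5 to 192 CPM in the RVLM (-4.40 ± 0.13). Nppa, the precursor of atrial natriuretic peptide, Adm, of adrenomedullin, and Cck, of cholecystokinin, differed by -1.98, -1.34 and -1.10. Nmb, a peptide of retrotrapezoid chemoreceptor neurons, was at medians of 4.44 and 7.35 CPM (-0.83 ± 0.15). Of the 5 tested parafacial markers, Gal and Adcyap1 were higher in the CVLM and Nmb was higher in the RVLM, beside 16.6% and 18.3% of all genes.

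Among 43 peptide receptors, 34 passed the filter, 15 were higher in the CVLM beside 16.6% of all genes, and the 6 higher in the RVLM were near the 18.3% of all genes, with a median of 0.23. Npy2r, a receptor of neuropeptide Y, was at 3.01 to 10.6 CPM in the CVLM (median 6.29) and at 0.342 to 2.52 CPM in the RVLM (median 1.21), a log2 fold change of 2.36 ± 0.14 without overlap. Glp1r, the receptor of glucagon-like peptide, differed by 2.31 ± 0.21, Galr1 by 1.42 ± 0.16 and Mc4r, a melanocortin receptor of autonomic neurons, by 1.4 ± 0.09. Vipr2, a receptor of vasoactive intestinal peptide and PACAP, was at 3.89 to 9.25 CPM in the CVLM and at 12.8 to 64.0 CPM in the RVLM, and it was the receptor called at 2-fold on the RVLM side (-2.39 ± 0.12).

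Of 12 genes of the renin-angiotensin system, 10 passed the filter, 5 were higher in the CVLM and 2 in the RVLM, with a median of 0.20. Beside 16.6% and 18.3% of all genes, the RVLM count was near its share. Mas1, the receptor of angiotensin-(1-7), was at 1.00 to 4.84 CPM in the CVLM (median 2.36) and at 0 to 0.61 CPM in the RVLM (median 0.191), a log2 fold change of 3.46 ± 0.21 without overlap. Agt, the angiotensin precursor that astrocytes make, was at 796 ± 171 CPM in the CVLM and 1298 ± 330 CPM in the RVLM (mean ± SD, n = 28), a log2 fold change of -0.69 ± 0.04, and it was higher in the RVLM in 28 of 28 rats although the ranges overlapped. Agtr1a, the main pressor receptor, was at medians of 3.91 and 2.57 CPM (0.76 ± 0.14, 25 of 28 rats), and Ace, which makes angiotensin II, at 20.9 and 13.9 CPM (0.69 ± 0.08). Agtr2, the other angiotensin receptor, was higher in the RVLM (-0.36 ± 0.10).

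Receptors of amines and acetylcholine were divided. Of 40 listed, 29 passed the filter, 11 were higher in the CVLM and 9 in the RVLM (16.6% and 18.3% of all genes), with a median of 0.08. Adra2a, the inhibitory adrenergic receptor on which clonidine acts, was at medians of 5.88 and 2.70 CPM (1.04 ± 0.15), and Chrm3, a muscarinic receptor, at 3.02 and 0.914 CPM (1.72 ± 0.17). Adra1d, an excitatory adrenergic receptor, was at 0 to 3.96 CPM in the CVLM (median 1.84) and at 1.34 to 18.7 CPM in the RVLM (median 9.12), a log2 fold change of -2.22 ± 0.24. The other gene called at 2-fold in the RVLM was Chrna2 (-2.14 ± 0.29).

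Of 23 tested glutamate receptors, 8 were higher in the CVLM and 4 in the RVLM (16.6% and 18.3% of all genes). Grm8, a presynaptic glutamate receptor, was at 27.9 to 57.7 CPM in the CVLM and at 9.51 to 19.1 CPM in the RVLM (1.67 ± 0.06, no overlap), and Grm2 differed by 2.37 ± 0.19. Grin3b, an NMDA receptor subunit of motor neurons, was at medians of 5.05 and 23.6 CPM (-2.09 ± 0.23). Of 20 tested GABA and glycine receptor genes, 5 were higher in the CVLM and 7 in the RVLM, beside the same shares of all genes. Gabra2, at medians of 19.1 and 50.1 CPM, was called at 2-fold (-1.32 ± 0.07).

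Potassium and HCN channel genes were even in number, with 18 of 59 tested higher in each region beside 16.6% and 18.3% of all genes, and a median of -0.06. At 2-fold, 3 were higher in the CVLM and 7 in the RVLM, beside 2.49% and 2.3%. Kcnj14, an inward rectifier of motor neurons, was at 10.3 to 32.9 CPM in the CVLM (median 20.4) and at 91.2 to 352 CPM in the RVLM (median 225), a log2 fold change of -3.47 ± 0.12 with no overlap. Kcng4 (-1.88 ± 0.10), Kcnj12 (-1.72 ± 0.20) and the acid-sensitive leak channels Kcnk3 (-1.34 ± 0.16) and Kcnk9 (-1.23 ± 0.22) were also higher in the RVLM. Kcnq5, which carries the M current, was at medians of 14.1 and 3.76 CPM (1.78 ± 0.12), and Kcnv1 and Kcnh7 differed by 1.54 and 1.52. Of 27 tested sodium and calcium channel genes, 12 were higher in the CVLM and 7 in the RVLM (16.6% and 18.3% of all genes). Cacna1h, a low-threshold calcium channel, differed by -1.80 ± 0.17, Scn9a by -1.13 ± 0.13, and Cacng5, which modulates AMPA receptors, by 1.34 ± 0.11.

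Retinoic acid patterns the hindbrain in the embryo and sets the borders of Hox expression. Of 16 genes of the pathway, 13 passed the filter, 4 were higher in the CVLM and 5 in the RVLM (16.6% and 18.3% of all genes). Cyp26b1, which degrades retinoic acid, was at 0.454 to 4 CPM in the CVLM (median 1.33) and at 12.0 to 29.8 CPM in the RVLM (median 18.5), a log2 fold change of -3.71 ± 0.13 (adjusted p = 4.4e-21) with no overlap. Aldh1a3, which makes it, was at medians of 0.0715 and 2.70 CPM (-3.98 ± 0.35). Among the binding proteins and receptors, Crabp1 (1.05 ± 0.18), Rxrg (1.23 ± 0.11) and Rarb (0.90 ± 0.08) were higher in the CVLM, and Rbp4 was higher in the RVLM (-0.89 ± 0.08). At 2-fold, 2 of the 13 tested genes were called on each side (2.49% and 2.3% of all genes). Those on the RVLM side were Cyp26b1 and Aldh1a3, the latter near 0 CPM in the CVLM. Other listed enzymes of synthesis are not reported here.

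Beyond the lists, the largest differences in the CVLM included genes with no part in transmission itself. Duox2, an oxidase that makes hydrogen peroxide, was at 14.8 to 79.2 CPM in the CVLM (median 44.4) and at 0.208 to 3.55 CPM in the RVLM (median 0.671), a log2 fold change of 5.80 ± 0.17, and its NTS median was 1.00 CPM. Lamb3, a chain of laminin, was at 31.2 to 124 CPM and at 2.37 to 7.78 CPM (3.94 ± 0.14), with an NTS median of 4.45 CPM. Prss22, a serine protease, Tmem72, a membrane protein, and Tyrp1, known from pigment cells, differed by 5.17, 4.39 and 4.17, all without overlap. These genes were picked as large differences, and 0.557% of all genes had no overlap with the CVLM higher. The signaling ligands Wnt3 and Wnt2b differed by 3.84 and 3.41, and Insrr, a receptor related to the insulin receptor, by 3.30.

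On the RVLM side, Stk32a, a kinase, was at 4.29 to 10.5 CPM in the CVLM (median 7.09) and at 47.6 to 147 CPM in the RVLM (median 97.6), a log2 fold change of -3.79 ± 0.10 (adjusted p = 2.3e-23). Slc10a4, a vesicle protein of cholinergic and monoaminergic neurons, was at 2.22 to 7.5 CPM and at 27.6 to 90.6 CPM (-3.73 ± 0.12). Shox2, a homeobox gene, Calhm5, an ion channel family member, Ssc5d and Trim58 differed by -4.09, -4.32, -3.78 and -5.28. Adam7 had a median of 0 CPM in the CVLM and a highest value of 0.447 CPM, and it was at 1.73 to 10.2 CPM in the RVLM. None of these 7 genes overlapped between the regions, beside 0.785% of all genes without overlap on this side. They were picked as large differences, so that the lack of overlap is no separate result. For Shox2 the gap was narrow, with 1.625 CPM in the highest CVLM library and 1.628 CPM in the lowest RVLM library.

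Markers of glia and vessels were called on both sides, beside 16.6% of all genes higher in the CVLM and 18.3% higher in the RVLM. Of 16 oligodendrocyte markers, 7 were higher in the CVLM and 1 in the RVLM, with a median of 0.11 and summed levels of 40720 to 68380 CPM in the CVLM and 34520 to 56030 CPM in the RVLM. Of 12 astrocyte markers, 8 were higher in the RVLM, among them the glutamate uptake gene Slc1a3 (-0.63 ± 0.04) and the connexin Gjb6 (-0.66 ± 0.05), and 2 were higher in the CVLM, Gfap (0.59 ± 0.15) and Fabp7 (0.24). Their summed levels were 2700 to 3844 CPM in the CVLM and 2728 to 4803 CPM in the RVLM. Agt moved to the same side as the astrocyte markers, and the part of astrocytes in its difference was not tested.

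Of 11 tested microglial markers 3, and of 9 endothelial markers 6, were higher in the RVLM, none of them at 2-fold, and none was higher in the CVLM. The microglial count lies near the 18.3% of all genes. Of 11 tested markers of the leptomeninges, the thin membranes on the brain's surface, 5 were higher in the RVLM, with Slc22a6 (-1.21 ± 0.30) at 2-fold. Their summed level was 38.4 to 68.5 CPM in the CVLM and 34.2 to 156.6 CPM in the RVLM. Clic6, listed for choroid plexus, was at medians of 0.461 and 4.51 CPM (-3.14 ± 0.23), while Ttr, the most typical gene of that tissue, was not called (-0.07). Of 5 tested hemoglobin and other blood genes 0 were called. Of 8 tested immediate early genes 2 were higher in the CVLM and 3 in the RVLM (16.6% and 18.3% of all genes).

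The region difference had the same sign at all 5 ages in 652 of the 653 genes called at 2-fold. These genes were chosen for a large difference over the same rats, so that this agreement was largely built in. The test of a dependence on age called 0 of 13636 genes with edgeR (0%) at an adjusted p under 0.05, with 375 at an unadjusted p under 0.05. DESeq2 likewise called 0 (335 unadjusted) and limma voom 0 (503 unadjusted), so that no dependence was detectable with 5 or 6 rats per age. Chat differed by -4.12, -3.72, -4.04, -3.17 and -3.74 from the youngest to the oldest age. Dbh differed by 2.87, 3.00, 2.39, 2.77 and 3.07, and Slc17a7 by 5.65, 5.23, 4.80, 4.49 and 5.17. Pnmt differed by 1.51, 1.18, 0.76, -0.09 and 0.97. The plot by age shows these values.

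**Figure D4:**
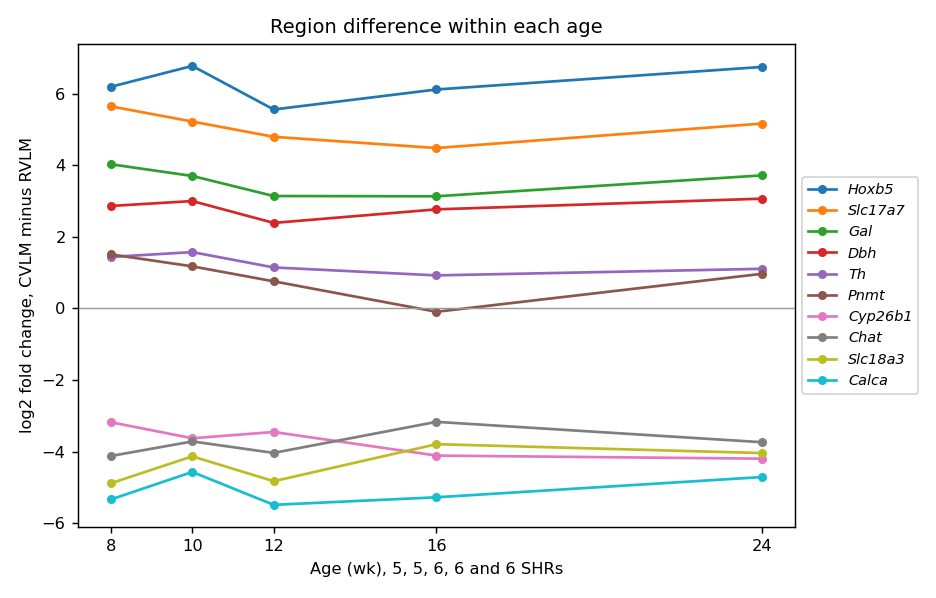
Log2 fold change (CVLM minus RVLM, y axis) of 10 genes within each age (x axis, in wk) in 5, 5, 6, 6 and 6 SHRs. The lines of Hoxb5, Slc17a7, Gal, Dbh and Th stay above 0 and those of Chat, Slc18a3, Calca and Cyp26b1 below 0 at all 5 ages, while Pnmt meets 0 at 16 wk.

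The same genes were also compared between the regions of the 18 WKY rats, the normotensive strain. Of the 653 genes called at 2-fold in SHRs, 648 had the same sign in WKY rats. They were chosen for a large difference in SHRs, and a shared sign does not mean a difference of the same size. Of these 653, 17 also passed the test of the difference between strains. That test, fitted on 92 libraries of both strains, called 47 of 13636 genes (0.345%) at an adjusted p under 0.05. It called 18 with library number 1 alone, 28 without 8 wk and 23 without 10 wk. The setting with number 1 alone also leaves out every 10-wk rat. Of the 47 genes, CVLM minus RVLM as a signed value was larger in SHRs in 26 (0.191%) and smaller in 21 (0.154%). A larger signed value is not always a larger gap between the regions.

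Igfbp5, which binds insulin-like growth factors, was at 40.7 to 135 CPM in the CVLM of SHRs (median 87.4) and at 12.7 to 42.8 CPM in that of WKY rats (median 22.4), while RVLM medians were 13.3 and 8.07 CPM. Its region difference was thus larger in SHRs by 1.22 ± 0.14 on the log2 scale. RT1-DOb, a class II histocompatibility gene, was at 1.03 to 4.42 CPM in the CVLM of SHRs. The highest library of the other 3 groups was at 0.65 CPM in the RVLM of SHRs, which gave a difference of 5.0 ± 0.60. Both regions of WKY rats were near 0 CPM, so that the size of this difference depends on the prior count of the fit. Cela1, a protease, had medians of 0.968 and 0.161 CPM in the CVLM and RVLM of SHRs and of 3.46 and 3.76 CPM in those of WKY rats (2.66 ± 0.36).

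In the other direction, Plcg2, a phospholipase of immune signaling, had medians of 1.69 and 4.12 CPM in the CVLM and RVLM of SHRs and of 1.59 and 1.48 CPM in those of WKY rats, a difference of -1.19 ± 0.17. Nov, a matrix protein, had medians of 3.60 and 3.22 CPM in SHRs and of 2.70 and 0.782 CPM in WKY rats (-1.46 ± 0.24). Retsat, which saturates retinol, had medians of 69.8 and 100.3 CPM in SHRs and of 183 and 182 CPM in WKY rats (-0.50 ± 0.05). Crhr1, a receptor of corticotropin-releasing hormone and the one member of the peptide receptor list that passed, was at medians of 11.5 and 6.85 CPM in SHRs and of 9.20 and 3.42 CPM in WKY rats (-0.76 ± 0.14, adjusted p = 0.0015).

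**Figure D5:**
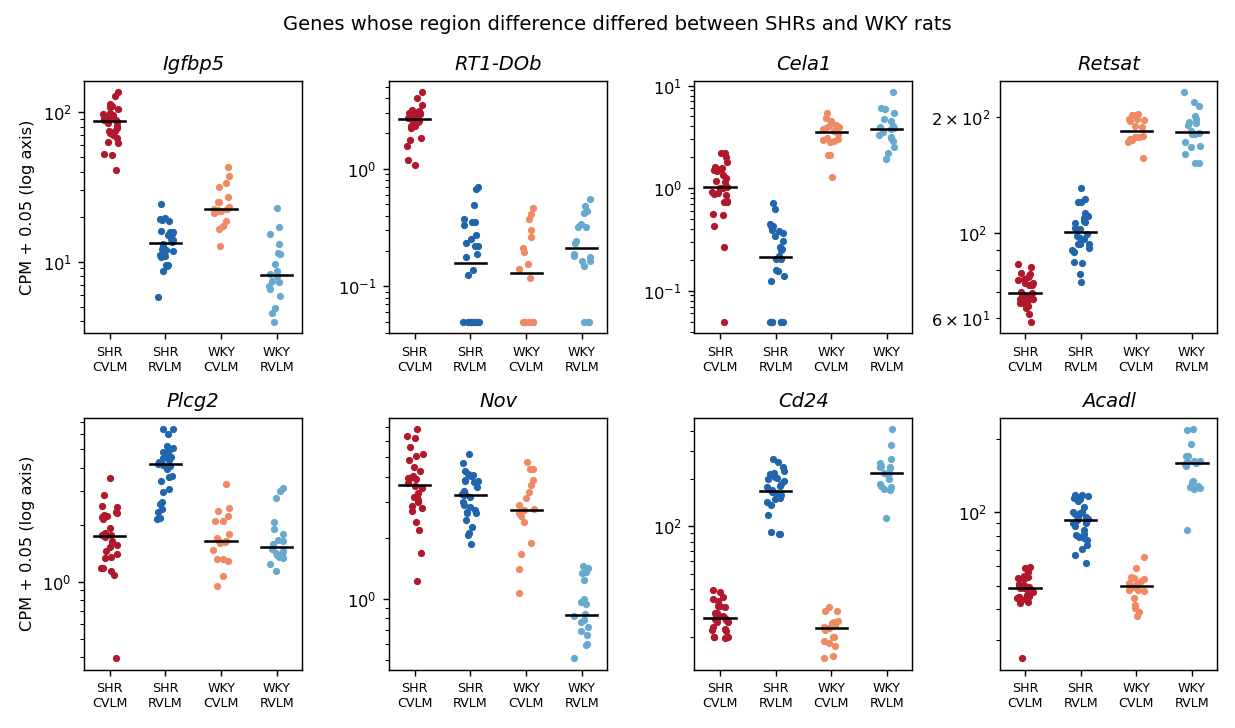
Levels of 8 genes in the CVLM and RVLM of 28 SHRs and 18 WKY rats, in CPM plus 0.05 on a log axis, with 1 point per library. Igfbp5 and RT1-DOb are highest in the CVLM of SHRs, and Plcg2 is highest in the RVLM of SHRs.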

How the data were processed

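The authors took tissue punches of the NTS, CVLM and RVLM from frozen brainstem sections and sequenced total RNA as paired ends. They mapped the reads to the rat genome rn6 with STAR inside RSEM, and deposited expected counts per gene, estimated by RSEM and not normalized, in 1 table per region. An adjustment by ComBat_seq is named in their methods, but the sources used here do not say if the deposited values carry it. Values that were not whole made up 4.95% for the CVLM and 4.88% for the RVLM. No sequencing batch is named in the sources used here. The column names carry a library number, 1 or 2, whose meaning is not given. In the SHRs, 21 rats had number 1 and 7 had number 2. All 10-wk rats of both strains had number 2, so that the number and this age cannot be told apart. At 8 wk all SHRs had number 1, whereas the WKY rats had both numbers.

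Expected counts were rounded. Of 32883 genes, those whose largest regularized log value (rlog) was at least 3.5 in the CVLM or the RVLM were kept (13636). Library sizes were scaled by TMM over all 138 libraries for the CPM shown. Differences were tested with edgeR 4.0.16 (quasi-likelihood, R 4.3.3) with the rat as a block and Benjamini-Hochberg adjustment. DESeq2 1.42.0 and limma voom 3.58.1 were alternatives. The samples are paired because both regions came from the same animal. Deviations from the region means correlated within a rat between -0.2803 and 0.5954 (median 0.2458) against a median of -0.01563 between rats, and 16 of 28 rats exceeded 0.1. Over 756 pairs of SHR libraries of the same region the lowest chi-square per gene was 4.5, above sampling noise, so no library was counted as a repeat. Age was taken from the titles, and in 1 SHR and 1 WKY CVLM library, both of 8 wk, another label gave a different age. The fits were tested on simulated data.

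The genes named were, first, the 12 largest differences in each direction among symbols called at 2-fold, with a mean of at least 5 CPM in the higher region and 1 direction in at least 25 of 28 rats. Second came members of the gene lists that passed, largest first, with others where they describe the list, and then 12 transmitter genes whatever their values. Some listed genes are not reported here. The last were up to 6 genes in each direction with the lowest p in the test between strains. Crhr1 was added as a list member. The samples compared, the gene lists and the rule were chosen with earlier results of these data known. Promoters, of which 27457 were searched, are from RefSeq (GRCr8), whereas the counts refer to rn6.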

Additional observations from a re-analysis of the deposited data

Results flagged for a closer look

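In 13 of the genes described, the region difference (CVLM minus RVLM, log2) was not the same in SHRs as in WKY rats, by the region-by-strain term of the edgeR test on 92 libraries. All but Crhr1 were named for a low p in this same test, so that their number is no measure of how common this is. The test called 47 of 13636 genes (0.345%). The term was positive for Igfbp5 (1.22), RT1-DOb (5.0), Cela1 (2.66), Pbld1 (0.84), Acadl (0.71) and Cd24 (0.67), so that the signed difference was higher in SHRs. In size, the difference was smaller in SHRs for Pbld1, Acadl and Cd24. For Acadl, an enzyme of fatty acid oxidation, both strains had more in the RVLM, with medians of 49.0 and 93.2 CPM in the CVLM and RVLM of SHRs and of 49.6 and 158 CPM in those of WKY rats. Cd24, a surface protein of young neurons, was likewise at 26.2 and 166.5 CPM in SHRs and at 22.6 and 217 CPM in WKY rats. Pbld1 was at medians of 36 and 31.7 CPM in SHRs and of 4.78 and 7.70 CPM in WKY rats, so that the strains differed more than the regions.

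The term was negative for Nov (-1.46), Plcg2 (-1.19), Crhr1 (-0.76), C1r (-0.71), Abhd16a (-0.52), Retsat (-0.50) and Taf12 (-0.50). In size, the difference was larger in SHRs, toward the RVLM, for Plcg2, C1r, Abhd16a, Retsat and Taf12. It was smaller in SHRs for Nov and Crhr1. C1r, a protease of the complement cascade, was at medians of 8.29 and 20.2 CPM in the CVLM and RVLM of SHRs and of 13.2 and 18.9 CPM in those of WKY rats. Abhd16a, a lipid hydrolase, was at 110.4 and 167 CPM in SHRs and at 106.5 and 101.5 CPM in WKY rats. Taf12, a part of the basal transcription machinery, was at 35.6 and 45.0 CPM in SHRs and at 37.0 and 34.4 CPM in WKY rats.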

How the results depend on the processing

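The counts at 2-fold, 339 higher in the CVLM and 314 in the RVLM, stayed within 1.5 times under other tools, scalings and ages left out. Exceptions for the CVLM were no filter (517), a log2 fold change over 2 (94) and the adjusted p alone (2268), and for the RVLM the last of these thresholds (82 and 2497). Leaving out each rat gave 327 to 355 and 294 to 326. Without the replicate block by rat they were 323 and 312, of which 318 and 308 were called with the pairing too, and the strain test called 51 genes in place of 47. DESeq2 called 354 and 318. The rats with library number 2 alone, a choice made after seeing the data, gave 297 and 289. No gene called at 2-fold changed sign in these settings. Of the counts of list members called in each direction, 88 values moved by more than 1.5 times or from 0, and 718 did not. The strain test fell from 47 to 18 genes with library number 1 alone, to 28 without 8 wk and to 23 without 10 wk. For these the cause was not tested, although each left fewer rats. Number 1 alone also left out every 10-wk rat, so that it and the setting without 10 wk are not separate checks. Among 137 named genes 30 values lost the threshold, among them Pnmt without 8 wk (0.67) and without 10 wk (0.74), and 2 gained it, both of Slc32a1 (0.46 with DESeq2, 0.45 with limma voom). Nov lost it in the strain test with library number 1 alone (-1.45). The median of all genes moved by less than 0.1 on the log2 scale. Genes near 0 CPM in a region have fold changes that depth limits.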

Other observations

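In the RVLM libraries, those with more Chat had less Pnmt and Penk. This was noticed in the data and then computed over the same 28 SHRs, so that the p-values are no independent test of it, with log2(CPM + 0.5) and permutation tests of 100000 resamples (two-sided), for 8 relations in all. Pnmt and Chat in the RVLM were related by Pearson's r = -0.698 and Spearman's rho = -0.707 (each permutation p = 2e-05, the smallest that can be had, adjusted 8e-05). Without the 2 rats farthest from the median of Chat r was -0.669, and r was -0.778 in the 21 rats of library number 1 and -0.769 in the 7 of number 2. Penk and Chat gave r = -0.683 and rho = -0.729 (each permutation p = 2e-05, adjusted 8e-05), -0.643 without the 2 farthest rats, and -0.876 and -0.867 by library number.

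Th and Chat in the RVLM gave r = -0.517 (permutation p = 0.0052, adjusted 0.0139) and rho = -0.467 (permutation p = 0.0132, adjusted 0.0353), r = -0.478 without the 2 farthest rats, and -0.565 and -0.161 by library number, so that the relation was weak in number 2. Dbh and Chat gave r = -0.2 (permutation p = 0.307, adjusted 0.615) and rho = -0.311 (permutation p = 0.107, adjusted 0.215), with r = -0.331 in library number 1 and 0.509 in number 2, which differ in sign. In the CVLM the same 4 relations lay between r = -0.0825 and 0.0289, with rho up to 0.112 and the lowest permutation p at 0.675 for r and 0.573 for rho. The CPM values of a library share its total, and what ties these genes together was not tested.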
